A study of Mus musculus with 6 samples.

Results

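Bach2 is the gene assigned the largest number of UTX sites that differed between UTX-deficient and WT progenitor CD8 T cells by CUT&Tag. Its members here are the rows of the authors' deposited table whose gene symbol is exactly Bach2, 10 of 6739 sites, each 401 bp wide. The gene was chosen by its number of rows in that table, and each row had been selected on an FDR under 0.05 in the same comparison of genotypes. The number of sites and their difference between genotypes are therefore given as descriptions, with no test. The UTX-deficient group was 3 samples from NY8.3 mice whose T cells lack UTX, named UTXTCD.NY8.3 in the study's design text. The WT group was 3 samples from NY8.3 mice with UTX intact. Mice of both groups are on the NOD background, which develops autoimmune diabetes, and carry the NY8.3 transgenic T cell receptor for an islet antigen, so they are a model with a fixed receptor. The cells were Ly108+CXCR6- CD8 T cells sorted from the pancreatic lymph node. The sources used here do not give the Cre that removes UTX, the age and sex of the mice or any pooling of animals. They do not say that the samples came from separate mice, so the spread between samples may be technical.

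BACH2 is a basic leucine zipper transcription repressor that pairs with small Maf proteins and competes with AP-1 factors for similar DNA elements. In CD8 T cells it holds back effector genes and is known for preserving memory and stem-like progenitor cells, and it has a long-known role in B cells. UTX, encoded by Kdm6a, removes methyl groups from lysine 27 of histone H3, a mark laid down by Polycomb, and also works in the MLL3 and MLL4 complexes at enhancers. CUT&Tag directs a transposase to the bound antibody, here against UTX, so that reads gather where UTX sits on chromatin. The table holds no measure of Kdm6a expression.

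The start of Bach2 that RefSeq lists lies at 51.5% of the gene length and carried no differing site. A Bach2 site lay 1.52 kb inside the upstream end of the gene, where the windows used here list no start. The next site beyond the Bach2 sites covered the whole listed promoter of the neighbouring gene Casp8ap2. That gene encodes a protein of death receptor signalling and histone RNA processing. The windows at the listed Bach2 start and at Casp8ap2 are shown because they are the places in this stretch where a sequence could be set beside the data. They come from RefSeq on GRCm38.p6, run 5′ to 3′ on the plus strand and reach from 250 bases before to 50 after the listed start. The Bach2 window is chr4:32417185-32417484 and the Casp8ap2 window is chr4:32615220-32615519. Capitals mark matches to the motifs searched.
Bach2: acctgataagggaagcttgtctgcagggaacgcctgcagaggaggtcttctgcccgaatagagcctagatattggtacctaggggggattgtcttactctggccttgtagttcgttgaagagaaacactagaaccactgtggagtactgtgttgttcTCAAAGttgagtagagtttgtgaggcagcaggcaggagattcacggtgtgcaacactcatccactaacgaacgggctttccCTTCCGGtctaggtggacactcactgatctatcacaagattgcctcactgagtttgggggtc
Casp8ap2: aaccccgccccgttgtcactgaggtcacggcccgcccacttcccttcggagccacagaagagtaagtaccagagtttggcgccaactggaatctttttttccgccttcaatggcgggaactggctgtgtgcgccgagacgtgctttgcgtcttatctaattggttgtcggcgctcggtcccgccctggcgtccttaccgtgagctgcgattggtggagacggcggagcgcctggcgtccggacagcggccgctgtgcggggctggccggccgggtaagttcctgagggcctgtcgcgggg

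The Bach2 window had 50.3% G and C bases and 7 CpG pairs, and the Casp8ap2 window had 64.3% and 31, against medians of 52.7% and 7 over 32817 listed windows of 300 bases. On either strand, the Bach2 window held 1 match to the TCF motif CTTTGA, at base 158, and 1 match to the ETS motif CCGGAAG, at base 239. These motifs occur in 16.0% and 8.86% of all listed windows. Neither window held the AP-1 motif TGANTCA, the RUNX motif TGTGGT or the forkhead motif GTAAACA, which occur in 7.81%, 16.8% and 3.65% of windows, and the Casp8ap2 window held none of the 5 motifs. None of the searched motifs overlapped another in the Bach2 window. The matches are descriptions of the letters alone.

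The 10 sites lay on chromosome 4 (mm10) from 32149152 to 32588594, a span of 439 kb, and gathered in the upstream part of the gene. RefSeq places Bach2 on the plus strand from 32238413 to 32586109, a gene of 348 kb. Site numbers below run from left to right, from 5′ to 3′ of the gene. Site 1, from 32149152 to 32149552, lay 88861 bp before the gene and 7426 bp before the noncoding gene Gm52717. Site 2, from 32239738 to 32240138, lay closest to where the gene begins, 1.52 kb in when measured to the middle of the site. Sites 3 to 9 followed at 12.3, 19.9, 53.3, 97.4, 106, 113 and 125 kb from that end, measured to the middle of each site. In coordinates these are 32250494 to 32250894, 32258117 to 32258517, 32291491 to 32291891, 32335658 to 32336058, 32343795 to 32344195, 32351231 to 32351631 and 32363588 to 32363988. Site 10, from 32588194 to 32588594, lay 2085 bp beyond the downstream end of the gene. Exons and introns could not be assigned, because the annotation used holds gene ends alone.

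The 8 sites inside the gene spanned 124 kb and the first 36.1% of its length, and all of them lay before the listed start at 32417435. The nearest of them, site 9, was 53.6 kb from that start. Across 207 sites in other genes of at least 200 kb, 50.7% lay in the same leading share of their gene, so a position in the upstream part was common among long genes. None of the 10 Bach2 sites overlapped a promoter window listed for any gene, against 47.1% of the 6718 sites lower in UTX-deficient cells. The table of windows lists 1 start for Bach2, at 51.5% of the gene length, and is not complete. No Bach2 window covered the upstream end of the gene, which site 2 lay closest to. The gaps between neighbouring Bach2 sites ran from 7.04 kb, between sites 7 and 8, to 224 kb, between sites 9 and 10, with a median of 11.96 kb, and 7 of the 9 were shorter than the median of 70.7 kb between neighbouring sites of the whole table. A window of 100 kb that begins at site 2 held 5 sites, a number reached by 7.83% of such windows begun at a site, and the densest window held 10.

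No site of another gene lay among the 10. All 8 sites that overlapped the gene were assigned to Bach2. The nearest site on the left, assigned to Manea, a gene of N-glycan processing, lay 5802 kb away, and Map3k7, the protein-coding gene next to Bach2 on that side, which encodes the kinase TAK1, had no site in the table. On the right, the Casp8ap2 site at 32615128 to 32615528 lay 26.5 kb from site 10, past Gja10, a connexin gene with no site in the table. Row numbers in the authors' deposited table rise with position on each chromosome and reach 10831. From site 1 to site 10 they run from 6711 to 6723, and 3 of these 13 numbers are not among the rows, 6712 after site 1, 6720 after site 8 and 6722 after site 9. The sites with those numbers were not analysed here. The rows present made up 76.9% of the numbers in the Bach2 stretch and 62.2% of all numbers up to 10831.

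**Figure D1:**
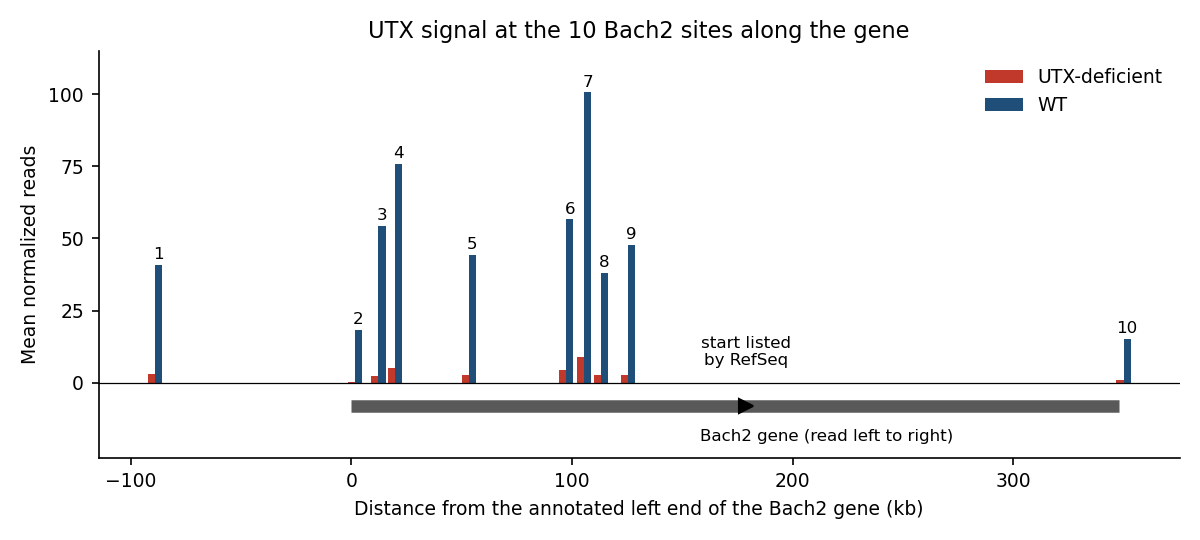
Mean normalized reads of the 10 Bach2 sites (UTX-deficient left of WT at each site, means over 3 recovered libraries each) against distance in kb from the upstream end of the annotated gene, drawn as a grey bar with the start listed by RefSeq as an arrowhead. Sites 2 to 9 fill the first 36.1% of the gene, and the highest, site 7, reached 8.87 in UTX-deficient cells and 101 in WT cells.

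The authors' table gives values per group and over all samples, none per library. Whole reads of each library were recovered from these values for 6726 of 6739 sites, all 10 Bach2 sites included. Recovered libraries carry no replicate number and are named by depth. Relative to a mean of 1, depth was 1.93, 1.07 and 0.00577 in the UTX-deficient libraries and 1.28, 0.916 and 0.792 in the WT libraries. The third UTX-deficient library was close to empty, with 30 reads over all recovered sites, against 15453 and 26789 in the other UTX-deficient libraries and 200271 to 348020 in WT. At the WT level it would have held 2.84 reads over the 10 Bach2 sites, so its value of 0 there says little. It also held 0 reads at every recovered site lower in UTX-deficient cells. The CD8 T cell markers Cd8a, Cd8b1, Cd3d, Cd3e, Cd2 and Lck had sites lower in UTX-deficient cells, 6 of 8 markers listed, and none of the 8 B cell markers did, against 22.1% of all protein-coding genes. Lck also had 1 site higher in UTX-deficient cells. The 30 reads of the near-empty library, each worth 173 normalized reads, all fell at recovered sites of that direction. A higher value there may therefore rest on that library alone.

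UTX reads fell at all 10 Bach2 sites in UTX-deficient cells in the authors' deposited table, as they did at 99.7% of all its rows. Under an FDR of 0.01 that table keeps 9 of the 10, beside 86.6% of all rows, and under 0.001 it keeps 8, beside 72.7% of all rows. At site 7, the strongest, UTX-deficient libraries held 10, 23 and 0 reads, against 127, 93 and 80 reads in WT libraries, each in order of depth. Scaled to depth, the UTX-deficient libraries spread over 5.17, 21.4 and 0 normalized reads, while the WT libraries lay together at 99.3, 102 and 101. The authors' deposited table gives site 7 a log2 fold of -2.81 (FDR 6.73e-06), the smallest fall among the 8 sites above 5 in WT concentration.

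Site 4 was second in WT. It held 7, 13 and 0 reads in UTX-deficient libraries, against 89, 90 and 47 in WT libraries, with -3.20 as log2 fold (FDR 1.98e-09) in the authors' deposited table. Site 6 followed with 8, 10 and 0 reads in UTX-deficient libraries, against 69, 54 and 45 in WT libraries, and had the smallest FDR of the 10 in the authors' deposited table, 3.12e-15, at a log2 fold of -3.10. At both sites the lowest WT library stayed well above the highest UTX-deficient one, by 4.90 times at site 4 and 5.79 times at site 6. Site 3 held 4, 5 and 0 reads in UTX-deficient libraries, against 64, 63 and 35 in WT libraries, and had the largest fall of the 10, -3.86 as log2 fold (FDR 2.75e-13) in the authors' deposited table. Site 9 held 7, 5 and 0 reads in UTX-deficient libraries, against 60, 48 and 35 in WT libraries, with -3.39 as log2 fold in the authors' deposited table. These 5 sites, all in the gene, were the Bach2 sites in the upper quartile of WT concentrations of the whole table.

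Sites 5, 8 and 1 were of middle strength. Site 5 held 4, 6 and 0 reads in UTX-deficient libraries, against 59, 38 and 36 in WT libraries. Site 8 held the same 4, 6 and 0 reads in UTX-deficient libraries, against 45, 34 and 33 in WT libraries. At both, the WT libraries agreed closely once scaled, with coefficients of variation of 5.67% and 8.74%. Site 1, before the gene, held 4, 7 and 0 reads in UTX-deficient libraries, against 35, 50 and 32 in WT libraries. Here the WT libraries differed most among the 10 sites, with a coefficient of variation of 33.4% against a median of 12.2% over the Bach2 sites and 16.8% over all sites lower in UTX-deficient cells. The log2 folds of sites 5, 8 and 1 were -3.47, -3.21 and -3.04 in the authors' deposited table.

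The weakest were sites 2 and 10, at the ends of the gene. Site 2 held 2, 0 and 0 reads in UTX-deficient libraries, against 24, 19 and 12 in WT libraries, and site 10 held 2, 2 and 0 in UTX-deficient libraries, against 23, 16 and 8 in WT libraries. The authors' deposited table lists both at a UTX-deficient concentration of 0, which stands for a mean under 1 normalized read. It gives them log2 folds of -3.11 (FDR 0.00594) and -2.33 (FDR 0.0293), and site 10 was the Bach2 site nearest the threshold of 0.05. Sites just past that threshold were not analysed here, since the table ends at it. Pooled over libraries by depth, the signal in UTX-deficient cells at site 2 was 3.605% of WT, with an exact 95% counting interval of 0.426 to 13.7%, and at site 10 it was 8.44%, with an interval of 2.21 to 23.1%. The interval at site 7, the site with most reads, was 7.37 to 15.7%. The intervals of all 10 sites overlapped one another, so the order of the sites by signal left is not resolved at this depth. These intervals cover counting error alone.

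**Figure D2:**
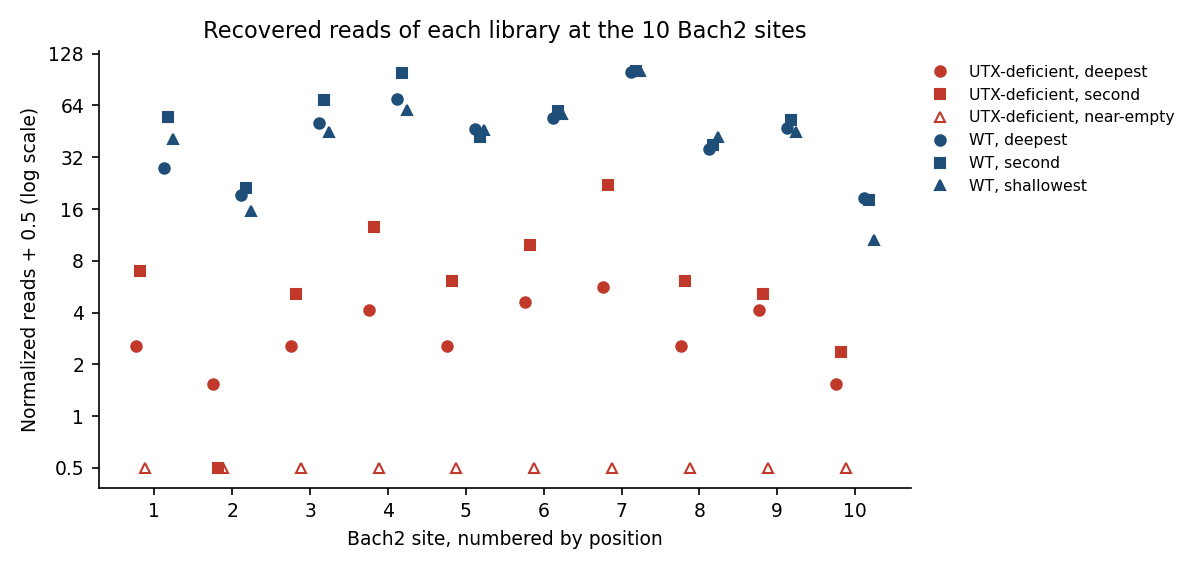
Normalized reads plus 0.5 on a log scale for each recovered library (UTX-deficient in red, left of WT in blue) at the 10 Bach2 sites, numbered by position, with marker shapes for depth within a group. At each site the 3 WT libraries lie above the UTX-deficient ones, and the near-empty library sits at 0 reads throughout.

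Over the 10 sites the mean per library was 3.29 ± 3.63 normalized reads (SD, n = 3) in UTX-deficient cells and 49.2 ± 5.18 (SD, n = 3) in WT cells. The single UTX-deficient libraries averaged 2.69, 7.18 and 0, and the WT libraries averaged 46.5, 55.1 and 45.8. The groups did not overlap over the sites as a set, nor at any of the 10, which holds for 99.8% of the sites with recovered reads. The signal in UTX-deficient cells was 6.69% of WT with all libraries and 10.03% when the near-empty one was left out. Over all sites lower in UTX-deficient cells these shares were 3.97% and 5.96%. By limma on the recovered reads, fitted over 6726 sites with Benjamini-Hochberg adjustment, all 10 sites were lower in UTX-deficient cells, as were 99.8% of all sites tested. The log2 differences ran from -4.84 to -3.64. Their standard error was 0.91 at each of the 10 and at the Casp8ap2 site, so it is a value pooled over sites and not an error of each. Leaving out the near-empty library, limma called all 10 again, beside 99.8% of all sites, but the log2 differences then ran from -4.41 to -2.998, and that of site 7 was -3.18 in place of -4.67. As the sites were selected on this contrast, their calls are a description.

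Both UTX-deficient libraries with usable depth had the same Bach2 sites at the extremes as the 3 WT libraries. Site 7 was the highest in each of these 5 libraries. Site 10 was the lowest in all 3 WT libraries, and site 2 was the lowest in the second UTX-deficient library and tied with site 10 in the deepest. Between the extremes the order was not resolved. In the deepest UTX-deficient library sites 1, 3, 5 and 8 tied at 4 reads. In the second, site 1 with 7 reads stood above site 3 with 5, the reverse of their order in WT. Across the 10 sites, Pearson's r of log2 normalized reads was 0.85 between these UTX-deficient libraries and 0.92 to 0.93 between pairs of WT libraries. Across 6715 sites lower in UTX-deficient cells the same r was 0.37 and 0.88 to 0.91. Between the group means r was 0.93 over the Bach2 sites and 0.67 over the 6715 sites. These are descriptions over sites that share libraries and a position on the chromosome.

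Bach2 sites were mostly strong in WT cells, and 9 of the 10 kept a larger share of signal in UTX-deficient cells than the median site did. As the same contrast chose the members, this is a description. The WT concentration, the log2 of mean normalized reads in the authors' deposited table, ran from 3.92 to 6.65 with a median of 5.53, against a median of 4.94 over all rows. By this value sites 7, 4, 6, 3 and 9 ranked 373, 694, 1200, 1298 and 1630 of 6739. Sites 5, 1 and 8 ranked 1875, 2177 and 2425, and sites 2 and 10 ranked 5910 and 6547. So 8 of 10 lay above the median of the table. In this order, neighbours from site 6 down to site 8 overlapped in their WT libraries, and so did sites 2 and 10. Site 7 lay above site 4, at 99.3 against 98.2 normalized reads for the nearest libraries, and site 4 above site 6 by 59.3 against 58.9. Sites 2 and 10 lay below the rest. In the authors' deposited table the median log2 fold was -3.15 over the Bach2 sites and -3.50 over all rows, and 9 of the 10 had a less negative fold than that. The signal left in UTX-deficient cells, as a share of WT at each site, had a median of 6.54% over the Bach2 sites and 3.83% over 6715 sites lower in UTX-deficient cells. Leaving out the near-empty library, these medians were 9.81% and 5.75%.

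In the authors' deposited table folds were more negative at stronger sites, so the Bach2 sites were also set beside sites of like strength. In the upper quartile of WT concentrations the median log2 fold was -3.20 over the 5 Bach2 sites, against -4.17 over all 1679 sites there. Sites 3, 4, 6, 7 and 9 kept 4.13, 6.93, 7.93, 8.82 and 5.77% of the WT signal, against a median of 3.39% with quartiles of 2.51 and 4.45% over the sites there. In the quartile below it sites 1, 5 and 8 kept 7.02, 5.76 and 6.72%, against a median of 3.72%. In the weakest quartile sites 2 and 10, on 2 and 4 reads in UTX-deficient libraries, kept 1.89 and 6.36%, against a median of 4.49%. These shares and medians count in the near-empty library, which held 0 reads at every site compared. Without it all of them rise by the same factor, and sites 3, 4, 6, 7 and 9 kept 6.19, 10.4, 11.9, 13.2 and 8.65%. The 5 strongest Bach2 sites and the 3 of middle strength thus all lay above the median of their quartile. Sites that overlap a listed promoter window and sites that do not had close median folds in the authors' deposited table, -3.55 and -3.47.

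The share of each library's recovered reads that fell in the 10 Bach2 sites was also taken per library. It was 0.337% (exact 95% interval 0.251 to 0.441) and 0.287% (0.227 to 0.359) in the UTX-deficient libraries of usable depth. In the WT libraries it was 0.171% (0.158 to 0.185), 0.183% (0.167 to 0.199) and 0.181% (0.163 to 0.201). The share was higher in both of these UTX-deficient libraries than in each WT library. The intervals cover counting error within a library alone and are no test between genotypes. The near-empty library had 0 of 30 reads there, but it also had 0 at all 6715 recovered sites lower in UTX-deficient cells. With 1 read worth 173 normalized reads, a row that held one could hardly be selected as lower. Its 0 at Bach2 thus gives no estimate of the share. Why reads remain at these sites was not tested, and no control antibody libraries were used here.

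**Figure D3:**
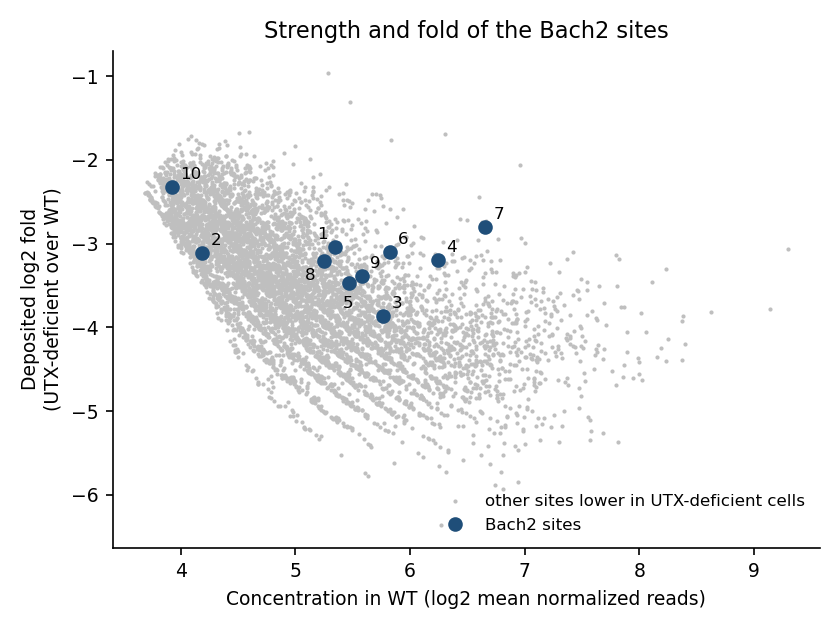
Deposited log2 fold (UTX-deficient over WT) against WT concentration (log2 mean normalized reads) for the 6718 sites lower in UTX-deficient cells, with the 10 Bach2 sites as numbered blue points. The 5 Bach2 sites in the upper quartile of WT concentration had a median log2 fold of -3.20 against -4.17 for all sites there.

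Most genes had a single site. Of 5221 gene symbols with a site lower in UTX-deficient cells, 81.4% had 1, and 7 had at least 7. These were Bach2 with 10, Foxp1 with 8, and Ago2, Galnt2, Klf13, Lef1 and Rplp1 with 7 each. Foxp1 encodes a forkhead factor of T cell quiescence, Lef1 a partner of TCF-1, Klf13 a Kruppel-like factor, Ago2 an Argonaute protein, Galnt2 an enzyme of O-glycosylation and Rplp1 a ribosomal protein. Bach2 is long, the 443rd longest of 21896 protein-coding genes. Counting all sites assigned to a gene, whether inside it or not, per 100 kb of gene length, Bach2 had 2.88. Foxp1 had 1.34, Galnt2 6.12, Lef1 6.14, Ago2 8.40 and Klf13 13.3. Rplp1 had 570, as its 7 sites spread over 246 kb while the gene is 1.23 kb long. For short genes this ratio is therefore no density within the gene. Over the 54 genes with at least 5 sites its median was 7.79, and 6 of them had a lower value than Bach2. Among 989 protein-coding genes of at least 200 kb, 209 had a site and 6 had at least 5, and after Bach2 and Foxp1 came Arhgef3 with 6 sites.

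**Figure D4:**
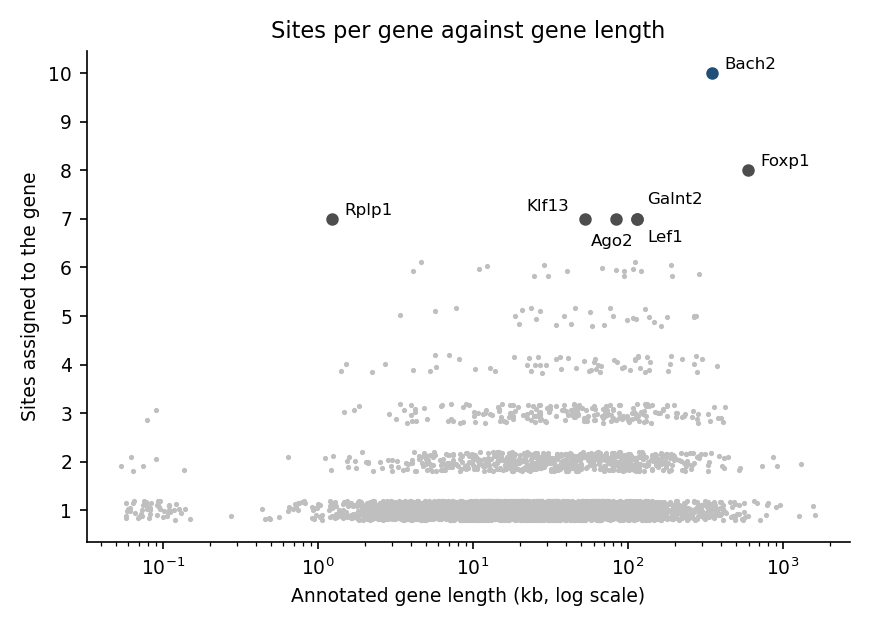
Number of sites lower in UTX-deficient cells assigned to each gene against annotated gene length in kb on a log scale, with small grey points spread slightly up and down and the 7 genes with at least 7 sites named. Bach2, in blue, has 10 assigned sites, 8 of them inside the gene, at a gene length of 348 kb, and Foxp1 has 8 at a length of 597 kb.

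Summed over its sites, the WT signal at Bach2 was 492 normalized reads, the 6th highest of all gene symbols, after Prss2, Mir23a, Dad1, Cic and Klf13. Of the 7 genes with at least 7 sites, the median log2 fold in the authors' deposited table ran from -3.81 at Rplp1 to -2.96 at Foxp1, and only Foxp1 had a less negative median than Bach2. The sites of Foxp1 were weaker. In UTX-deficient libraries the mean over the 10 Bach2 sites was 2.69, 7.18 and 0 normalized reads, against 1.81, 2.80 and 0 over the 8 Foxp1 sites. In WT libraries it was 46.5, 55.1 and 45.8 over the Bach2 sites, against 24.7, 30.3 and 24.9 over the Foxp1 sites, so Bach2 was higher in all 3. The genes with at least 5 sites whose median WT and UTX-deficient concentrations lay nearest to those of Bach2 were Chaserr, Galnt2, Gm4668, Prkch and Sema4d, at distances of 0.17, 0.23, 0.27, 0.29 and 0.30 on the log2 scale over the 2 groups. Chaserr is a noncoding RNA gene, Prkch encodes a protein kinase C and Sema4d a semaphorin. Their median log2 folds in the authors' deposited table ran from -3.73 at Sema4d to -2.59 at Gm4668.

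The partners and competitors of BACH2 had sites in most cases. Of 20 genes listed, 17 had a site lower in UTX-deficient cells (85.0%, against 22.1% of all protein-coding genes), with a median log2 fold of -3.67 over 31 sites in the authors' deposited table, and none had a site higher there. The related repressor gene Bach1 had 1 site at a WT concentration of 5.38 and -3.33 as log2 fold in the authors' deposited table. Of the small Maf genes, Maff had 1 site with -4.52 and Mafk 1 with -4.17 as log2 fold in the authors' deposited table, and Mafg had no site there. Jund, an AP-1 subunit, was the strongest of the list, with a WT concentration of 7.48 and -3.66 as log2 fold in the authors' deposited table. The corepressor genes Ncor1 and Hdac3 were among the 17.

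Genes known to regulate Bach2 or its product had a site at 11 of 14 (78.6%, against 22.1% of all protein-coding genes), with a median log2 fold of -3.61 over 20 sites in the authors' deposited table. Stat3, a cytokine-responsive factor, was the strongest of these, at a WT concentration of 7.63. The forkhead genes Foxo1 and Foxo3 and the PI3K pathway genes Pik3cd, Akt2 and Mtor were among the 11, and Akt1, Pik3ca and Men1 had no site in the table. Progenitor factors and receptors had a site at 14 of 18 (77.8%, against the same 22.1%), with Tcf7, which encodes TCF-1, the strongest at a WT concentration of 7.47 and a median log2 fold of -3.25 over 46 sites in the authors' deposited table. Foxo1 and Foxp1 stand on both lists. Effector genes held back by BACH2 had a site at 7 of 18 (38.9%, against the same 22.1%), with Ifng the strongest at a WT concentration of 5.95 and a median log2 fold of -3.52 over 10 sites in the authors' deposited table. Prdm1, which encodes the effector factor BLIMP-1 and is a classic BACH2 target, had no site there, nor had Tbx21, Id2, Zeb2 or Klrg1. The lists were chosen with earlier results of these data known, so the shares are descriptions, and the table holds differing sites alone.

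The Casp8ap2 site, the next beyond the Bach2 sites, was of middle strength. It held 1, 7 and 0 reads in UTX-deficient libraries, against 48, 42 and 16 in WT libraries. Its WT concentration of 5.11 ranked 2809, with -2.75 as log2 fold (FDR 0.00307) in the authors' deposited table. The signal left was 6.80% of WT with all libraries and 10.2% when the near-empty one was left out, against medians of 6.54% and 9.81% over the Bach2 sites. Its middle lay at -142 bp from the listed Casp8ap2 start, and the site covered all 300 bases of the window printed above.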

How the data were processed

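UTX CUT&Tag was done on 3 UTX-deficient and 3 WT samples, grouped by the sample titles. Per the submitters' processing notes the build was mm10, and DiffBind, MACS2, Picard, SAMtools, Bowtie2, cutadapt and FastQC were used. The sources used here do not give their versions or roles. The column names, per the file headers, are those of DiffBind. Its concentrations are log2 values of a group's mean normalized reads as deposited, never under 0, and its fold is a deposited log2 value, UTX-deficient over WT. The p-value and FDR per site are the authors' own. It is not stated if samples were pooled for peak calling.

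Where a group's value is above 0, 3 times its antilog is a sum of whole reads, each times the worth of 1 read of its library. Where it is listed at 0, that antilog is not the sum. There the sum was taken from the deposited value over all 6 libraries, less the sum of the other group. This was so for the UTX-deficient value of 37.6% of rows, Bach2 sites 2 and 10 included. The worths of 1 read were found from the table and the sums solved within rounding error. Candidate worths were kept only where the depths summed to nearly 6, which library sizes over their mean would give for 6 libraries. That sum is a setting of the search and no check on it. Of WT sums shifted at random, 1.23% could also be solved. Sites with several solutions or none, 13 in all, were left out of fits on reads. On 2 simulated tables of 2000 sites, at least 1998 were solved and 0 wrongly. limma 3.58.1 in R 4.3.3 was run on log2(normalized reads + 0.5). It called 100.0% of 200 simulated 8-fold decreases and 0.0919% of unchanged sites among 6726. The near-empty library was simulated at a depth of 1, against 0.00577 in the data, so these rates do not describe the fit that includes it.

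Positions, lengths, promoter windows and strands came from RefSeq tables of GRCm38.p6, the assembly of mm10. No genome sequence was used here, so the sequences under the sites could not be searched. The named sites are all Bach2 rows and the nearest rows on either side. The named genes are those next to Bach2, those with at least 7 sites, the 5 of those with at least 5 sites closest to Bach2 in median concentrations, the strongest member of each list, and the BACH and small Maf genes. Other list members and Arhgef3 were chosen after their values were seen, as were the genes above Bach2 in summed signal. Some list members are not reported here by name. The members and lists were chosen with earlier results of these data known.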

Additional observations from a re-analysis of the deposited data

How the results depend on the processing

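All 10 Bach2 sites stayed lower in UTX-deficient cells under each limma alternative that tested them, and 9 and 8 of them passed an FDR of 0.01 and 0.001 in the authors' deposited values. With a mean of at least 10 reads per library, 8 were tested and all were called. All 97 values of single sites under limma alternatives, the Casp8ap2 site included, kept their direction and their call. The median log2 fold of -3.15 became -3.91 when taken as the difference of the deposited concentrations. Scaled to each library's sum over the sites of the table, the mean was 30.1 reads in UTX-deficient cells and 25.8 in WT cells. That scaling sets the libraries equal over these same sites, so by construction it cannot show their overall loss. Leaving out 1 library, the mean ran from 1.34 to 4.93 normalized reads in UTX-deficient cells and from 46.2 to 50.8 in WT cells. The lowest came without the second UTX-deficient library and the highest without the near-empty one. The mean share of WT signal left, 6.13%, ran from 2.81% to 9.20% for the same omissions. Under 10 kb apart, merged sites numbered 7, and 8 lay in the gene. No paired analysis was possible because the table gives group values and the recovered libraries carry no replicate number. Depth limits what is known of signal left, since the 10 sites held 52 and 77 reads in the usable UTX-deficient libraries.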
